A study of Mus musculus with 357 samples.

Results

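The retinoblastoma pocket protein genes Rb1, Rbl1 and Rbl2 and the INK4 inhibitor genes Cdkn2a, Cdkn2c and Cdkn2d were described across single mouse hematopoietic stem cells (HSCs), the bone marrow cells that give rise to all blood lineages. They were chosen by gene symbol, as the pocket protein and INK4 genes with an assay, and made up 6 of the 96 gene assays measured. The rule itself uses names only, and the set was proposed with earlier results of these data known. Cdkn2b, the other INK4 gene, was not among the assays.

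The cells came from Col1a1-tetO-H2B-mCherry mice, in which a fluorescent histone is induced and then diluted as cells divide. They were sorted from bone marrow as Lin-Sca1+c-kit+CD48-CD150+ cells, 2 or 5 weeks after labelling. Every group thus shared the transgene, the labelling and the sort, and the 2 groups differed in the chase time. The labels used here name neither the transactivator that drives the tetO promoter, nor the age of the mice, nor how many mice gave cells. The 2-week chase comprised 183 cells, from plates of 90 and 93 cells, and the 5-week chase 174 cells, from plates of 91 and 83. Since no animal is named, each chase time counted as 1 sample, and no test between times was made. The plates, 2 per time, were the only repeated unit and may be technical repeats. Each plate held 1 chase time, so plate and chase time cannot be told apart.

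The pocket proteins bind E2F transcription factors and hold back the genes that carry a cell from G1 into S phase. Cyclin D with CDK4 or CDK6, and then cyclin E with CDK2, phosphorylate the pocket proteins and release E2F. The INK4 proteins bind CDK4 and CDK6 and keep cyclin D from activating them, so they act upstream of the pocket proteins. HSCs are mostly out of cycle, and loss of pocket proteins or of INK4 proteins is known to alter their number or division in mice.

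Each value was a threshold cycle (Ct), the PCR cycle at which the product of a gene passed a fluorescence threshold, so that each cycle fewer stands for roughly a doubling of the template. Detection required a Ct of 25 or below, and a detection share is the percentage of cells with a detected product. A cell had 54.6 ± 5.36 assays detected (SD over cells) at 2 weeks and 58.8 ± 5.71 at 5 weeks, and the mean Ct of 14 reference assays was 13.45 ± 0.53 and 12.96 ± 0.65 respectively. The 5-week plates thus had a lower reference Ct and more detected assays per cell. Each plate held 1 chase time, so more template in the cells and a difference between plate runs cannot be told apart. Of 8 HSC markers, 6 were measured, and their mean share was 84.8 and 82.4% on the 2-week plates, against 79.1 and 77.9% on the 5-week plates. The shares at 2 and 5 weeks were 98.9 and 99.4% for Kit, 91.3 and 73% for Ly6a (Sca1), 72.1 and 55.7% for Slamf1 (CD150), and 1.09 and 1.72% for Cd48. Of markers of other cells, the B cell factor Ebf1 was at 0 of 357 cells, Tcf7 was in 1.09 and 1.15% of cells, and the monocyte receptor Csf1r was in 14.8 and 2.30%. Of the Csf1r products, 77.4% came later than Ct 18. The mean share of the erythroid genes Klf1 and Gata1 was 8.06 to 8.33% on the 2-week plates and 13.7 to 13.9% on the 5-week plates. The part of these differences in the results was not tested.

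The promoters are shown because pocket proteins act on genes through E2F sites, and because the Ct of Rbl1 moved with that of an S phase gene, Cdt1, in the results that follow. RefSeq windows of 300 bases (GRCm38.p6, 250 before to 50 after a start) were available for 5 of the 6 genes. They were searched on both strands for 4 spellings of the E2F site, TTTCGCGC, TTTGGCGC, TTTCCCGC and TTTGCCGC. A window with several of them counted once, and 744 of 32851 windows (2.26%) held at least 1. The Rbl1 window held TTTCGCGC, which 106 windows (0.323%) held, with its first base 18 before the start. One of the 2 Cdkn2a windows held TTTCCCGC, present in 351 windows (1.07%), with its first base 99 before the start. The Cdt1 window held TTTGGCGC, present in 169 windows (0.514%), with its first base at 33 after the start. The letters were in none of the windows of Rbl2, Cdkn2c, Cdkn2d and Ccne1, nor in the other Cdkn2a window, and the Cdk2 window held TTTCCCGC on the strand opposite to the gene. In the sequences, 5′ to 3′ on the strand of each gene, capitals mark the searched letters. A match is a description of the letters and was not tested as a binding site.
Rbl1, chr2:157204535-157204594, minus strand: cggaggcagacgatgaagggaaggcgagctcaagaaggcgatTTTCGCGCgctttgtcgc
Cdkn2a, chr4:89294685-89294744, minus strand: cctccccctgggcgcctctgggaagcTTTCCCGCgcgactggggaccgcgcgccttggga
Cdt1, chr8:122568037-122568064, plus strand: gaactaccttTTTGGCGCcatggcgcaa

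The first comparison asked whether the shares of cells with each transcript differed between chase times. Cdkn2d alone of the 6 genes had both 5-week plates above both 2-week plates, by 2.52 to 8.03 percentage points, and the plates of the other 5 overlapped. Over all 96 assays, both 5-week plates were higher in 42.7% and lower in 7.29%, beside 1 of 6 higher and 0 of 6 lower here. With 6 genes, these counts are too small to set the members apart from that background. The median difference was 3.14 points over the 6 genes and 2.85 points over the 96 assays.

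Rb1 encodes pRB, the founding pocket protein. Its share was 58.9 and 55.9% on plates 1 and 2 of the 2-week chase, against 69.2 and 50.6% on those of the 5-week chase. The 5-week plates therefore held both the highest and the lowest share, 18.6 points apart, while the 2-week plates were 2.97 points apart. The pooled shares were 57.4% at 2 weeks (95% exact interval 49.9 to 64.6%, n = 183 cells) and 60.3% at 5 weeks (52.7 to 67.7%, n = 174 cells). Their difference of 2.97 points had an interval of -7.61 to 13.5. All intervals cover counting error only. The direction rests on 1 plate: the difference was -6.77 points without 5-week plate 1 and 11.9 points without 5-week plate 2. It was also -5.10 points in a fit over cells with the reference Ct as a covariate.

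Rbl1 encodes p107, the pocket protein that is usually made in cycling cells. Its share was 65.6 and 74.2% at 2 weeks, plate 1 first, against 67 and 71.1% at 5 weeks. The 2-week plates enclosed the 5-week plates. The pooled shares were 69.9% (62.7 to 76.5%) and 69% (61.5 to 75.7%), with a difference of -0.98 points (-10.9 to 8.91). Its sign turned with the plate left out, from -5.23 without 2-week plate 1 to 3.41 without 2-week plate 2, with 1.14 without 5-week plate 1 and -2.91 without 5-week plate 2. With the reference Ct as a covariate it was -8.54 points.

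Rbl2 encodes p130, the pocket protein known for E2F repression in resting cells. It had the largest detection share of the 6 genes, with 88.9 and 83.9% on the 2-week plates against 91.2 and 88% on the 5-week plates. The lower 5-week plate lay just under the higher 2-week plate. The pooled shares were 86.3% (80.5 to 91%) and 89.7% (84.1 to 93.8%), a difference of 3.32 points (-3.88 to 10.5). With a product required by Ct 18, both 5-week plates were higher in 42 of the 96 assays and lower in 5. Rbl2 was then among the higher ones, with a difference of 5.45 points and plates that no longer overlapped. The difference was 0.77 points without 2-week plate 2, 1.61 without 5-week plate 1 and 5.78 without 2-week plate 1, and 0.13 points with the reference Ct as a covariate.

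Cdkn2a encodes p16Ink4a and, from another first exon and reading frame, p19Arf, an activator of p53. The primer positions were not used here, so which of the transcripts the assay read cannot be told. It was the rarest of the 6, detected in 13 of 357 cells (3.64%). The counts were 7 of 90 cells (7.78%) and 3 of 93 (3.23%) on the 2-week plates, and 3 of 91 (3.30%) and 0 of 83 on the 5-week plates. A count of 0 of 83 allows a share of up to 3.61%. The pooled shares were 5.46% (2.65 to 9.82%) and 1.72% (0.357 to 4.96%), and the interval of the difference of -3.74 points ran from -8.30 to 0.54. The plates overlapped, since the second 2-week plate was 0.07 points below the first 5-week plate. The difference was -1.50 points without 2-week plate 1, -2.17 without 5-week plate 2 and -6.05 without 2-week plate 2.

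On 2-week plate 1 the Cdkn2a Ct values were 15.42, 16, 16.24, 16.32, 16.88, 16.89 and 19.18, on 2-week plate 2 they were 15.41, 15.55 and 16.60, and on 5-week plate 1 they were 14.37, 16.63 and 17.86. Thus 1 of the 13 products came later than Ct 18. For comparison, the shares of Cd48, whose protein the sort selects against, were 1.09 and 1.72%, next to 5.46 and 1.72% for Cdkn2a. All 5 Cd48 products came later than Ct 18, but assays differ in efficiency, so the Ct values of the 2 genes are not compared.

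Cdkn2c encodes p18Ink4c. Its share was 30.0 and 38.7% on plates 1 and 2 of the 2-week chase, against 42.9 and 37.3% at 5 weeks. The second plates of the 2 times lay within 1.36 points of each other, while the first plates were 12.9 points apart. The pooled shares were 34.4% (27.6 to 41.8%) and 40.2% (32.9 to 47.9%), a difference of 5.80 points (-4.60 to 16.1). This was the member whose detection followed the template of the cell most closely, with a rank correlation between detection and reference amount of 0.22 to 0.37 over the 4 plates. With the reference Ct as a covariate over cells the difference turned to -7.70 points. It was 1.52 points without 2-week plate 1, 2.92 without 5-week plate 1 and 10.2 without 2-week plate 2.

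Cdkn2d encodes p19Ink4d. It was the most widely detected INK4 gene, at 71.1 and 66.7% on plates 1 and 2 of the 2-week chase and 73.6 and 74.7% at 5 weeks. Both 5-week plates lay above both 2-week plates. The pooled shares were 68.9% (61.6 to 75.5%) and 74.1% (67 to 80.5%), and the difference of 5.29 points had an interval of -4.48 to 14.9. The difference was -1.18 points with the reference Ct as a covariate and -0.10 points with the number of other detected assays. In cells with at least 50% of assays detected it was 1.86 points and the plates overlapped. Without 2-week plate 2 it was 3.03 points.

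**Figure D1:**
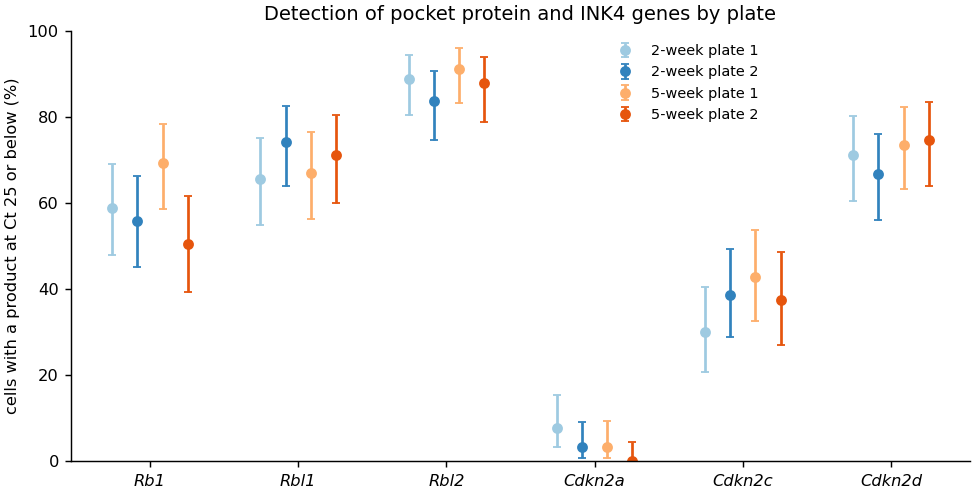
Percentage of cells with a product at Ct 25 or below for the 6 genes, by plate (points), with exact Clopper-Pearson 95% intervals (bars, counting error only). The plates of 2 weeks (blue) and 5 weeks (orange) overlap for every gene but Cdkn2d, whose 5-week plates sit at 73.6 and 74.7% above the 2-week plates at 71.1 and 66.7%.

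The amount of each transcript in the cells that had it was then compared. Of 2142 reactions for the 6 genes, 1173 gave a detected product, and 32 of these came between Ct 18 and Ct 25. The median Ct by plate, in the order 2-week plates 1 and 2 and 5-week plates 1 and 2, was 15.83, 15.52, 15.03 and 15.19 for Rb1, whose cells ranged from 13.1 to 21.2. It was 15.92, 15.22, 14.92 and 15.13 for Rbl1 (12 to 23.8) and 15.12, 14.90, 14.41 and 14.58 for Rbl2 (12.7 to 24.4). The median Ct of each pocket protein gene was thus lower on both 5-week plates, as it was for 71.2% of the 80 assays compared (those found in 10 or more cells of each plate), while 2.5% were higher in Ct. The medians were 15.53, 15.57, 15.38 and 15.60 for Cdkn2c (11.8 to 19.3) and 16.85, 16.64, 16.21 and 16.39 for Cdkn2d (13.7 to 19.9). The medians of Cdkn2d were also lower on both 5-week plates, and those of Cdkn2c overlapped. By plate means of the same Ct, only Rb1 and Rbl2 kept their plates apart, and the plates of Rbl1, Cdkn2c and Cdkn2d overlapped. Since assays differ in efficiency, a Ct of one gene was not set against that of another.

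**Figure D2:**
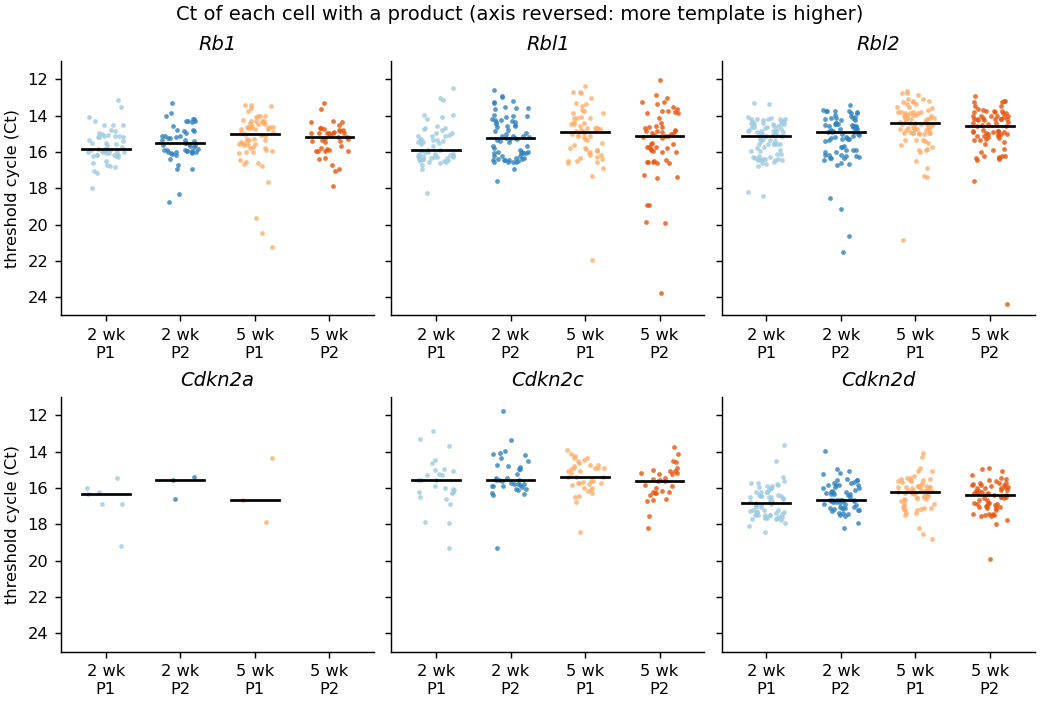
Ct of every cell with a detected product (points), by gene and plate (P1, P2), with the plate median (line). The axis is reversed, so cells with more template are higher. The Rbl2 medians run from 15.12 and 14.90 on the 2-week plates to 14.41 and 14.58 on the 5-week plates, and Cdkn2a has 13 points in all.

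Centred on the 14 reference assays of the same cell, the level is the reference mean minus the Ct, in log2 units. Both 5-week plates were then lower for 4 of the 5 genes with enough cells and higher for Rbl2, where 43.8% of the 80 assays compared were lower and 30.0% higher. The difference was -0.28 for Rb1, -0.40 for Rbl1, -0.46 for Cdkn2c and -0.29 for Cdkn2d, and it was 0.09 for Rbl2. The median difference over the 80 assays was -0.13. With medians over cells in place of means, both 5-week plates were lower for Cdkn2c alone, at -0.28, and the other 4 genes overlapped, where 36.2% of assays were lower and 32.5% higher. Without centring, 61.2% of assays were higher and 7.5% lower with a median of 0.37, and the differences were 0.26 for Rb1, 0.09 for Rbl1, 0.60 for Rbl2, -0.01 for Cdkn2c and 0.24 for Cdkn2d. Centred on Actb and Gapdh, 56.2% of assays were higher and 11.2% lower with a median of 0.25, and Rb1 (0.16) and Rbl2 (0.49) were the members with both 5-week plates higher. The direction for Rb1 and Cdkn2d turned with both other centrings, and that for Rbl1 turned without centring. Without 2-week plate 2 the reference-centred differences were -0.20 for Rbl1, -0.28 for Cdkn2c and -0.15 for Cdkn2d, and without 5-week plate 1 they were -0.18 for Rb1 and 0.05 for Rbl2.

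The reference-centred Rbl2 plate means were -1.84 ± 1.00 (SD, n = 80 cells) and -1.85 ± 1.41 (n = 78) at 2 weeks, and -1.71 ± 1.26 (n = 83) and -1.79 ± 1.49 (n = 73) at 5 weeks. The Rbl1 plate means were -2.20 ± 1.00 (n = 59) and -1.83 ± 0.96 (n = 69), then -2.35 ± 1.45 (n = 61) and -2.44 ± 1.64 (n = 59). For Cdkn2c they were -2.47 ± 1.14 (n = 27) and -2.16 ± 1.07 (n = 36), then -2.68 ± 0.74 (n = 39) and -2.86 ± 0.91 (n = 31). The spread among cells of a plate exceeded each of these differences.

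The 6 genes were next counted within single cells. All 3 pocket protein genes were detected in 141 of 357 cells (39.5%), with 69 of 183 (37.7%) at 2 weeks and 72 of 174 (41.4%) at 5 weeks. Exactly 2 were detected in 138 cells, 1 in 73, and none in 5. If the genes were detected independently within each plate, 128 cells would have had all 3, 164 would have had 2, 59.3 would have had 1 and 5.36 none, so cells with 2 genes were fewer than that, and cells with 3 or with 1 were more numerous. The partial sets were led by Rbl1 with Rbl2 (80 cells, 22.4%), Rb1 with Rbl2 (50 cells, 14%) and Rbl2 alone (43 cells, 12%). Rbl1 alone was in 19 cells, Rb1 alone in 11, and Rb1 with Rbl1 in 8.

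The INK4 genes were sparser. No INK4 product was detected in 68 cells (19%), 1 in 178 (49.9%), 2 in 110 (30.8%) and 3 in 1 cell. Cdkn2d alone was the most frequent state, in 145 cells (40.6%), ahead of Cdkn2c with Cdkn2d in 101 cells (28.3%) and Cdkn2c alone in 30. The pair Cdkn2c and Cdkn2d, without Cdkn2a, was in 44 cells (24%) at 2 weeks and 57 cells (32.8%) at 5 weeks. Of cells with Cdkn2c, 76.7% had Cdkn2d, against 68.3% of the others. Over both families, 1 cell had no product of the 6 genes and 0 cells had all 6.

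**Figure D3:**
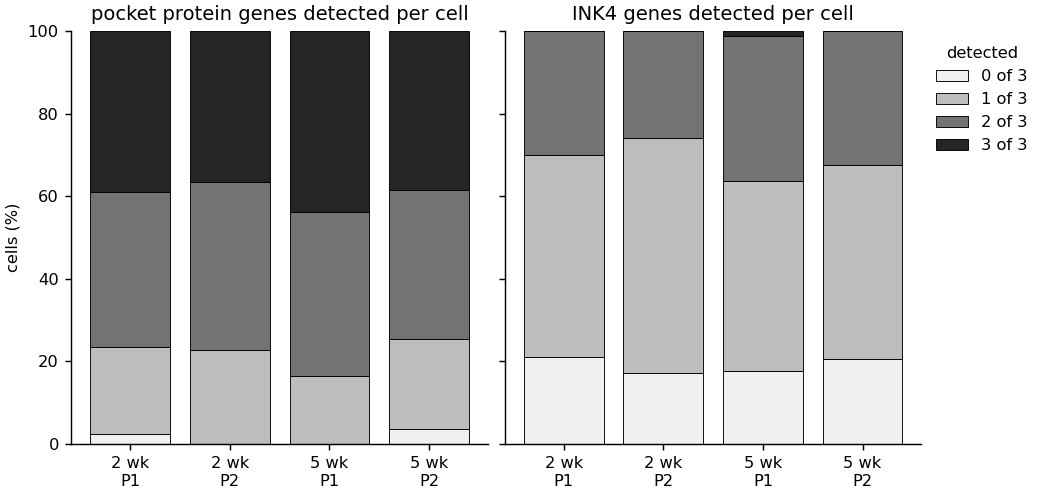
Share of cells (%) with 0, 1, 2 or 3 detected genes of the pocket protein family (left) and of the INK4 family (right), by plate (P1, P2). All 3 pocket protein genes are detected in 36.6 to 44% of cells on every plate, and the largest INK4 class on each plate is 1 gene, at 46.2 to 57%.

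Pairs of members were found together in close to the number of cells that independence within plates would give. Rb1 and Rbl1 were both detected in 149 cells where independence gives 145, Rb1 and Rbl2 in 191 where it gives 185, and Rbl1 and Rbl2 in 221 where it gives 218. Across families, Rb1 and Cdkn2d were together in 148 cells against 150, Rbl1 and Cdkn2d in 175 against 177, and Rbl1 and Cdkn2c in 99 against 92.6. The pair that departed most in proportion was Rb1 with Cdkn2a, singled out after its values were seen. Rb1 was detected in 3 of the 13 Cdkn2a cells (23.1%) and in 207 of the other 344 cells (60.2%), where independence within plates gives 7.88 of 13. The other members in those 13 cells were Rbl1 in 10, Rbl2 in 9, Cdkn2d in 9 and Cdkn2c in 2. With 13 cells on 3 plates these counts are small, and no test was made.

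The last comparison asked which assays varied most like each member from cell to cell. Spearman's rho of the Ct was computed within each plate, with undetected reactions set at Ct 25, against 80 other assays. Cells of a plate may have shared an array run, which the labels used here do not state. All assays of a cell share its amount of template, so a partial rho given the reference Ct was also computed. Some of the assays compared, such as Actb, Gapdh, CDK4, Trp53 and Etv6, are themselves reference assays. The partial rho with such an assay can be lowered by construction. These are descriptions with no test. Cdkn2a was in too few cells to enter.

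Rbl1 varied most like Cdt1, the licensing factor that loads the MCM helicase before S phase and an E2F target. Their rho was 0.37 and 0.61 on the 2-week plates and 0.45 and 0.56 on the 5-week plates, over 83 to 93 cells each. The partial rho was 0.31 to 0.49, and in the 31 to 42 cells per plate with both products the rho was 0.37 to 0.64. Among all 3240 assay pairs, the pair was at place 30 by its weakest plate and at place 4 by its weakest partial rho. Neither gene is a reference assay, while pairs with a reference assay can lose places in partial rho by construction. The next assays for Rbl1 were CDK4 (rho 0.30 to 0.58, partial 0.10 to 0.39) and Gapdh (0.30 to 0.49, partial 0.11 to 0.30), both reference assays. The lowest was mettl7a1 (-0.37 to -0.08).

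In detection, Rbl1 was found in 140 of 171 cells with Cdt1 (81.9%) and in 108 of 186 cells without it (58.1%). Independence within plates gives 119 cells with both. The share of Rbl1 was higher in Cdt1 cells on every plate, at 80% against 54% and 79.2 against 67.5% on the 2-week plates, and at 79.5 against 57.7% and 89.7 against 54.5% on the 5-week plates. Most Cdt1 products were late, with a median Ct of 19.2 and 70.2% of them later than Ct 18. The 51 cells with Cdt1 by Ct 18 were therefore looked at separately, a class formed after the values were seen, and 50 of them had Rbl1 (98.0%, 95% exact interval 89.6 to 99.95%). By plate these were 7 of 8, 18 of 18, 14 of 14 and 11 of 11 cells. Rbl1 was in 90 of 120 cells (75%) with a later Cdt1 product, and its median Ct was 13.89 in the early cells, 15.31 in the later ones and 15.98 in cells with no Cdt1. The mean reference Ct of these classes was 12.67, 13.18 and 13.38, so the early Cdt1 cells also had more template, and the part of this in the Rbl1 values was not tested.

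Over all cells pooled, the share of Rb1 stepped in the same order as that of Rbl1, and the share of Rbl2 was level over these classes. Rb1 was in 76.5, 61.7 and 52.2% of the cells with early, late and no Cdt1, its median Ct was 14.56, 15.25 and 15.66, and its rho with Cdt1 was 0.14 to 0.38 (partial 0.08 to 0.30, the second highest of its 80 assays on the weakest plate). The order of the Rb1 shares did not hold on every plate. It was kept on 2-week plate 1 (87.5, 56.25 and 56%) and 5-week plate 2 (72.7, 57.1 and 40.9%). It was not kept on 2-week plate 2 (66.7, 51.4 and 55%) and 5-week plate 1 (85.7, 88 and 55.8%). Rbl2 was detected in 86.3% of the cells with early Cdt1, 88.3% of those with late Cdt1 and 88.2% of those without, and its rho with Cdt1 was -0.09 to 0.15. Its median Ct did step in that order, at 14.57, 14.74 and 14.91 over all cells. On 5-week plate 1 the Rbl2 medians ran the other way, at 14.55, 14.40 and 14.26. Over all cells pooled, Cdkn2c was in 56.9, 36.7 and 32.3%, and Cdkn2d in 80.4, 72.5 and 68.3%. The Cdkn2c order was not kept on 2-week plate 1 (50, 21.9 and 32%) and was kept on the other plates. The Cdkn2d order was kept on 2-week plate 1 alone (87.5, 75 and 66%). Cdkn2d was in 77.8, 54.3 and 72.5% on 2-week plate 2. It was in 78.6, 84 and 67.3% on 5-week plate 1, and in 81.8, 82.1 and 68.2% on 5-week plate 2. These differences between genes were not tested.

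**Figure D4:**
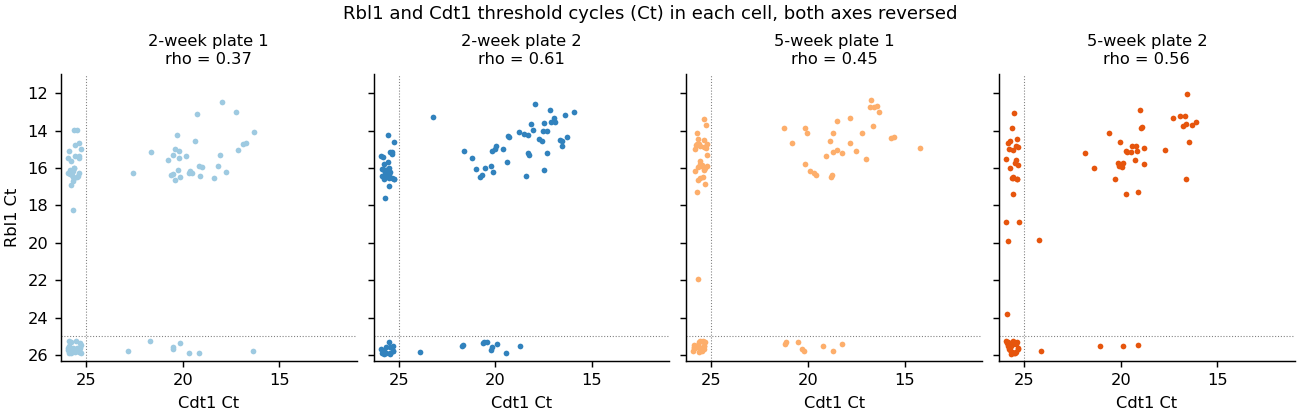
Ct of Rbl1 against Ct of Cdt1 in every cell of each plate (points), both axes reversed so that more template is up and to the right. Cells with no product at Ct 25 or below lie beyond the dotted lines, at scattered positions, and rho is 0.37, 0.61, 0.45 and 0.56. Cells far to the right nearly all lie high.

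Rb1 co-varied weakly with all assays. Its highest were Actb (rho 0.20 to 0.28, partial -0.12 to 0.18), CDK4 (0.19 to 0.32, partial 0.08 to 0.12) and CDK2, the kinase partner of cyclin E (0.18 to 0.40, partial 0.02 to 0.34). Rb1 and CDK2 were together in 149 cells, where independence gives 134, and Rb1 was in 65.4% of cells with CDK2 and 47.3% of those without. The lowest for Rb1 was Fos (-0.18 to -0.04). Rbl2 varied most like Cbx6, a Polycomb chromobox gene, with a rho of 0.26 to 0.30 and a partial rho of 0.18 to 0.27. Erg (0.18 to 0.29) and Nfat5 (0.18 to 0.29) followed, and Nfil3 was lowest (-0.12 to -0.02). The Rbl2 values with these assays were weak, and by Pearson's r on the weakest plate they were 0.03 for each of the 3.

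For the INK4 genes the leading assays were mostly ones that every cell expresses, and their values shrank once the reference Ct was given. Actb, Trp53, Gapdh and Etv6 are themselves reference assays, so part of this shrinkage was built in. Cdkn2c led with Actb (0.30 to 0.40, partial 0.05 to 0.21), Trp53 (0.27 to 0.45, partial 0.00 to 0.24) and Gapdh (0.24 to 0.36, partial -0.02 to 0.14), and its lowest was Mllt3 (-0.22 to -0.09). The rho of Cdkn2c with the pathway gene Cdkn1c was -0.27 to -0.03 (partial -0.27 to -0.04). Among the leading assays of Cdkn2d were Etv6 (0.21 to 0.29, partial 0.01 on its weakest plate) and Gapdh (0.18 to 0.37), and its lowest was Cebpb (-0.04 to -0.03). CDK6, a direct INK4 target, had a rho of 0.22 to 0.42 with Cdkn2c (partial 0.06 to 0.30) and of 0.18 to 0.35 with Cdkn2d (partial 0.08 to 0.19). By the weakest partial rho, CDK6 was the first of 80 assays for Cdkn2d. Cdkn2c and Cdkn2d had a rho of 0.10 to 0.28 with each other, and the pocket protein genes had 0.14 to 0.23 (Rb1 and Rbl1), 0.05 to 0.10 (Rb1 and Rbl2) and -0.02 to 0.22 (Rbl1 and Rbl2).

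**Figure D5:**
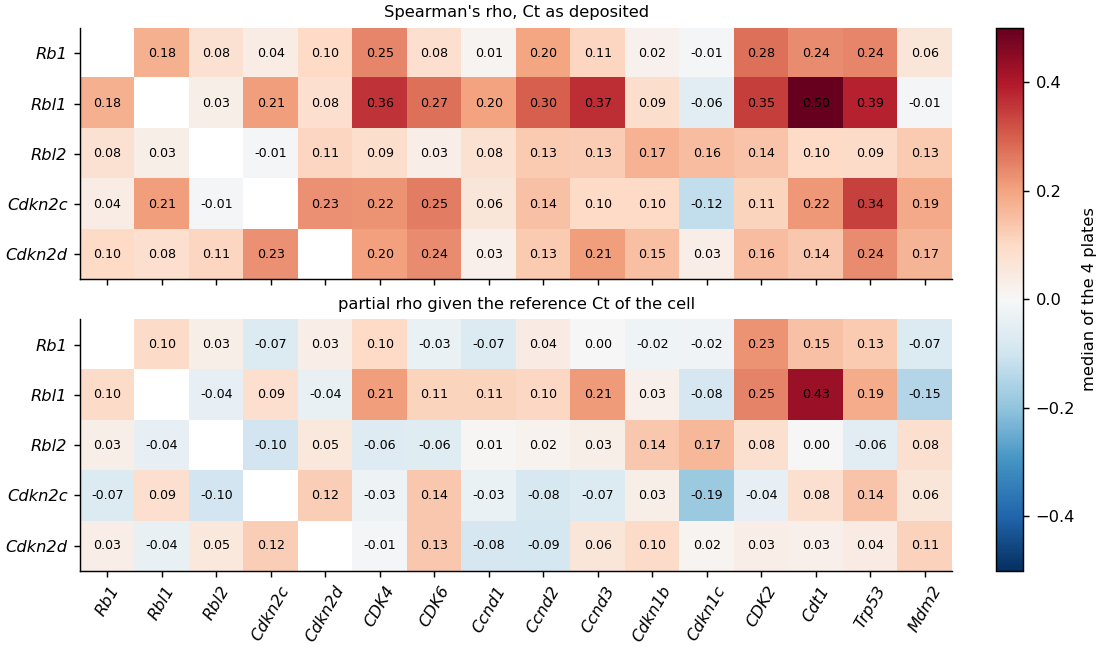
Median over the 4 plates of Spearman's rho of the Ct (top) and of the partial rho given the mean reference Ct of the cell (bottom), for 5 of the 6 genes (rows) against each other and genes of their pathway (columns). Rbl1 with Cdt1 is the strongest cell in both panels, at 0.50 and 0.43.

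The genes around the members in the pathway were described from a list of 38, of which 13 were measured. Both 5-week plates were higher in detection share for 6 of the 13, lower for 1 and overlapping for 6, where 42.7% of all assays were higher and 7.29% lower, so the list's counts lay near that background. It had a median difference of 3.78 points, beside 2.85 points over all assays. Of the 5 INK4 targets, CDK4 and Ccnd2 were detected in 100% of cells. Ccnd1 went from 43.7 to 63.2% and Ccnd3 from 90.2 to 98.3%, both with plates apart, and CDK6 went from 84.2 to 87.9% with overlapping plates. Of the Ccnd1 products, 63.7% came later than Ct 18, and of the Ccnd3 products 2.98% did. All 3 CIP/KIP genes, whose products inhibit cyclin E and CDK2 complexes among others, had plates apart. Cdkn1b (p27) went from 50.8 to 88.5%, Cdkn1c (p57) from 50.3 to 58%, and Cdkn1a (p21) from 12 to 2.87%. Beside these, the INK4 differences between times were -3.74 to 5.80 points, and Cdkn2d also had plates apart. The families were not wholly unlike: Cdkn1c differed by 7.77 points (-2.95 to 18.3) and Cdkn2c by 5.80 points (-4.60 to 16.1). Of 27 E2F and S phase genes, 3 were measured: CDK2 went from 54.6 to 73.6% with plates apart, and Ccne1 (12.6 and 10.9%) and Cdt1 (50.8 and 44.8%) had overlapping plates. In the p53 arm, which p19Arf feeds by holding back Mdm2, Trp53 was detected in 100% of cells and Mdm2 went from 51.9 to 75.3% with plates apart.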

How the data were processed

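The authors deposited 1 threshold cycle per assay and cell, not normalized, with 999 for no product. Each single cell was lysed in a well and reverse transcribed, per the labels' protocols, followed by multiplex pre-amplification (22 cycles, all 96 assays), exonuclease I, a 5-fold dilution and 30 cycles of EvaGreen qPCR on a microfluidic array with a melting curve. Pre-amplification can lose rare templates and EvaGreen reads any double-stranded product, so an undetected gene may still be expressed and a late product may be non-specific. How the Ct thresholds were set is not given in the sources used here.

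All 357 cells were mapped from the labels, and no well fell under 20% of assays detected. Detection was a Ct of 25 or below (of 34272 reactions, 13989 had no product and 60 a later one). Shares carry exact Clopper-Pearson 95% intervals, differences an interval built from those bounds, and a count of 0 a limit of 3 counts. An assay was called higher or lower when both 5-week plates lay above or below both 2-week plates. The reference assays, each with a product in 95% or more of the cells of each plate, were Actb and Gapdh, the cell cycle and p53 genes CDK4, Ccnd2 and Trp53, the receptor gene Kit, and the transcription factor genes Gata2, Meis1, Hlf, Lmo2, Ldb1, Zfpm1, Nfe2 and Etv6. Levels needed 10 detecting cells on every plate (80 assays), and rho needed detection in 10% of cells on every plate (81 assays). The rule for named genes took the 6 members, every measured gene of the pathway list, the sort and reference genes and, per member, the 3 assays with the highest rho on their weakest plate and the 1 whose highest rho was lowest. An assay that this rule took is left out here. The members and lists were chosen with earlier results of these data known. Alternatives were other Ct limits, well filters, centrings and covariates, medians, equal plate weights, each plate left out, partial rho, Pearson's r and cells with both products. The steps were tested on simulated plates. Python 3.11.15 with numpy 2.4.6, pandas 2.3.3, scipy 1.17.1 and matplotlib 3.10.9 was used. Promoter windows are from RefSeq on GRCm38.p6, and the study's own build is not given in the sources used here.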

Additional observations from a re-analysis of the deposited data

How the results depend on the processing

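No paired analysis was possible because the results come from no test and the plates of the 2 times share only a number. Of 78 alternative values for detection shares, 8 changed sign. They were -7.70 points for Cdkn2c given the reference Ct, the one value outside the interval of its reported difference, -1.18 and -0.10 points for Cdkn2d given the reference Ct and the number of detected assays, -5.10 and -2.68 points for Rb1 given the same quantities, and those for Rb1 and Rbl1 with a plate left out. Members with plates apart numbered 2 at Ct 18 (Rbl2 and Cdkn2d), and with the 50% well filter the 1 was Rbl2. In each case the 5-week plates were the higher ones. Over all 96 assays, both 5-week plates were higher in 42 and lower in 5 at Ct 18. With the 50% well filter they were higher in 37 and lower in 6. The member counts are too small to set the members apart from that background. Leaving out a plate gave shares differing by -6.77 to 11.9 points (Rb1), -5.23 to 3.41 (Rbl1), 0.77 to 5.78 (Rbl2), -6.05 to -1.50 (Cdkn2a), 1.52 to 10.2 (Cdkn2c) and 3.03 to 7.47 (Cdkn2d).

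Of 70 alternative values for levels, 8 changed sign and another 15 moved by more than the plate spread. Without centring they differed by 0.26 (Rb1), 0.093 (Rbl1), 0.60 (Rbl2), -0.014 (Cdkn2c) and 0.24 (Cdkn2d), and with Actb and Gapdh by 0.16, -0.0025, 0.49, -0.047 and 0.083. With the median Ct of the cell they were -0.17 (Rb1) and 0.16 (Rbl2), and without pathway genes among the references -0.40 (Rb1) and -0.0076 (Rbl2). Over all cells with undetected reactions at Ct 25 they were -0.059 (Rb1), 0.37 (Rbl2), 0.053 (Cdkn2c) and 0.13 (Cdkn2d), and by medians -0.10 (Rb1), -0.14 (Rbl1) and 0.15 (Rbl2). Rbl2 was 0.16 at Ct 23 and 0.017 with any product. Leaving out a plate gave -0.35 to -0.18 (Rb1), -0.57 to -0.20 (Rbl1), 0.05 to 0.13 (Rbl2), -0.60 to -0.28 (Cdkn2c) and -0.43 to -0.15 (Cdkn2d). Of 45 alternative values of rho, 30 moved. The cause of these changes was not tested. The number of cells limits Cdkn2a most, with 13 detections.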
